A study of Mus musculus with 4 samples.

Results

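The genes of cholesterol and fatty acid synthesis were examined in mouse embryonic stem cells that had been treated with an inhibitor or lacked a subunit of lactate dehydrogenase. The set holds 31 genes chosen by name from the 25170 gene symbols of the deposited tables, and all 31 were found. The choice was made with earlier results of these data known. The shares of members set beside those of all genes below are therefore descriptions only. It consists of 5 regulators, 16 genes of the sterol arm and 10 genes of the fatty acid arm. There were 4 libraries of polyadenylated RNA, 1 for each group, all from stem cells grown under the same normal culture with 15% serum and LIF on gelatin. SO is a library of genetically wild-type cells under a treatment that the labels call SO and the series text describes as an inhibitor, without a dose or a duration. Ldha_KO and Ldhb_KO are libraries of cells with a knockout of Ldha or of Ldhb, which encode the A and B subunits of lactate dehydrogenase. WT is a library of untreated wild-type cells, described as E14. The labels do not say whether each knockout is a single clone. With 1 library for each group there is no replicate check, no test and no error on any value, and each difference compares libraries.

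Cells build cholesterol from acetyl-CoA through mevalonate, squalene and lanosterol, and fatty acids from acetyl-CoA through malonyl-CoA. Both arms are switched on by the SREBP transcription factors. These are held in the endoplasmic reticulum with Scap and the Insig proteins when sterols are plentiful, and are carried away by Scap and cut into active form when sterols run low. SREBP-2, the product of Srebf2, mainly drives the sterol arm, and SREBP-1, the product of Srebf1, mainly drives the fatty acid arm.

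The deposited values were read as FPKM, a level scaled to transcript length and to library depth. They summed to 471595 in SO, 477538 in Ldha_KO, 484528 in Ldhb_KO and 526316 in WT, and the number of reads is unknown. Differences below are on the log2(FPKM + 1) scale, over the 13142 genes that reached 1 FPKM in at least 1 library. All 31 members reached it. A gene was counted as higher or lower at a difference of 0.58, which is 1.5-fold of FPKM + 1, and 2-fold is given as a stricter rule. A gene with low values can thus pass a fold in FPKM and fall short of it here. Ldha was at 1711 FPKM in SO, 154 FPKM in Ldha_KO, 2237 FPKM in Ldhb_KO and 1774 FPKM in WT, and Ldhb was at 139 FPKM in SO, 158 FPKM in Ldha_KO, 5.74 FPKM in Ldhb_KO and 76.5 FPKM in WT, as the labels say. Among genes with values under 0.2 FPKM, the ratio of the value worth 1 read was compared between libraries. Only ratios close to the most common one were kept, so narrow spans are in part set by that choice. From the 10th to the 90th percentile the span was 0.0167% between SO and WT. It was 0.577% between Ldha_KO and WT, 0.432% between Ldhb_KO and WT and 0.219% between Ldha_KO and Ldhb_KO. Between SO and the knockouts it was 0.605% for Ldha_KO and 0.463% for Ldhb_KO. Among the kept ratios the spans with either knockout were wider than that between SO and WT. Their part in the differences was not tested.

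The stem cell markers Pou5f1, Sox2, Nanog, Esrrb and Zfp42 ranged from 204 to 1330.1 FPKM over the 4 libraries. Their summed level was 2730.0 FPKM in SO, 2513 FPKM in Ldha_KO, 2646 FPKM in Ldhb_KO and 3068 FPKM in WT. Sox2 was lower by more than 1.5-fold in Ldha_KO, at 204 FPKM, than in Ldhb_KO, at 389 FPKM, or WT, at 371 FPKM (-0.92 and -0.86), and no other of these markers passed 1.5-fold in any comparison. Of 10 fibroblast or feeder markers 4 reached 1 FPKM, Lum and Dcn were listed at 0 in every library, and the summed level ran from 43.8 to 54.4 FPKM, of which Thy1 made up 36.9 to 47.4 FPKM. Of 10 endoderm markers 4 reached 1 FPKM, Sox17 and Ttr were listed at 0 in WT, and the sum was 13.7 FPKM in SO, 17.3 FPKM in Ldha_KO, 16.6 FPKM in Ldhb_KO and 11.6 FPKM in WT. Of 8 trophectoderm markers 5 reached 1 FPKM, with a sum of 63.7 FPKM in SO, 68.3 FPKM in Ldha_KO, 82.5 FPKM in Ldhb_KO and 50.9 FPKM in WT. The endoderm and trophectoderm sums were thus higher in SO, Ldha_KO and Ldhb_KO than in WT. Lama1 held most of the endoderm sum, at 7.53 FPKM in SO, 11.9 FPKM in Ldha_KO, 11.5 FPKM in Ldhb_KO and 7.72 FPKM in WT. In Ldhb_KO 3 of the 5 trophectoderm markers that reached 1 FPKM lay above WT. Krt18 was among them, at 29.0 FPKM against 14.8 FPKM. The other 2, Eomes (3.77 against 4.84 FPKM) and Hand1 (0.690 against 0.862 FPKM), lay below. Of the fibroblast, endoderm and trophectoderm markers, 3 passed 2-fold in a comparison. Pdgfrb was at 3.35 FPKM in SO, 2.80 FPKM in Ldha_KO, 3.63 FPKM in Ldhb_KO and 0.949 FPKM in WT. Tfap2c stood at 26.1 FPKM in Ldhb_KO against 11.5 FPKM in Ldha_KO and 9.80 FPKM in WT, and Apoa1 at 0.104 FPKM in Ldha_KO against 1.47 FPKM in Ldhb_KO. The part of all these markers, Sox2 included, in the differences below was not tested. In bulk RNA, fewer cells of a type and less RNA per cell cannot be told apart.

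The set as a whole moved moderately. The ratio of the highest to the lowest library ran from 1.18 for Insig2 to 2.13 for Acss2, with a median of 1.60, against a median of 1.498 over all kept genes. It was under 1.5 for 13 of 31 members (41.9%) and for 50.2% of all kept genes. In SO and Ldha_KO the sum of the fatty acid arm lay farthest from that of WT, and in Ldhb_KO that of the regulators did. Its summed level was 371 FPKM in SO, 366 FPKM in Ldha_KO, 494 FPKM in Ldhb_KO and 556 FPKM in WT, which is 0.667, 0.658 and 0.888 times WT in SO, Ldha_KO and Ldhb_KO. The sum of the sterol arm was 381 FPKM in SO, 375 FPKM in Ldha_KO, 480 FPKM in Ldhb_KO and 443 FPKM in WT, and that of the regulators was 136 FPKM in SO, 143 FPKM in Ldha_KO, 177 FPKM in Ldhb_KO and 128 FPKM in WT. SO and Ldha_KO therefore had the lowest sums of both synthesis arms, and Ldhb_KO had the highest sums of the sterol arm and of the regulators. Genes with high levels weigh most in these sums. Scd2 alone was at 84.7 FPKM in SO, 86.5 FPKM in Ldha_KO and 179 FPKM in WT, and Srebf2 at 82.9 FPKM in Ldhb_KO. The library sums also differ. The sterol arm made up 0.0807% of the library sum in SO, 0.0785% in Ldha_KO, 0.0990% in Ldhb_KO and 0.0842% in WT. For the fatty acid arm these shares were 0.0787%, 0.0766%, 0.102% and 0.106%.

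**Figure D1:**
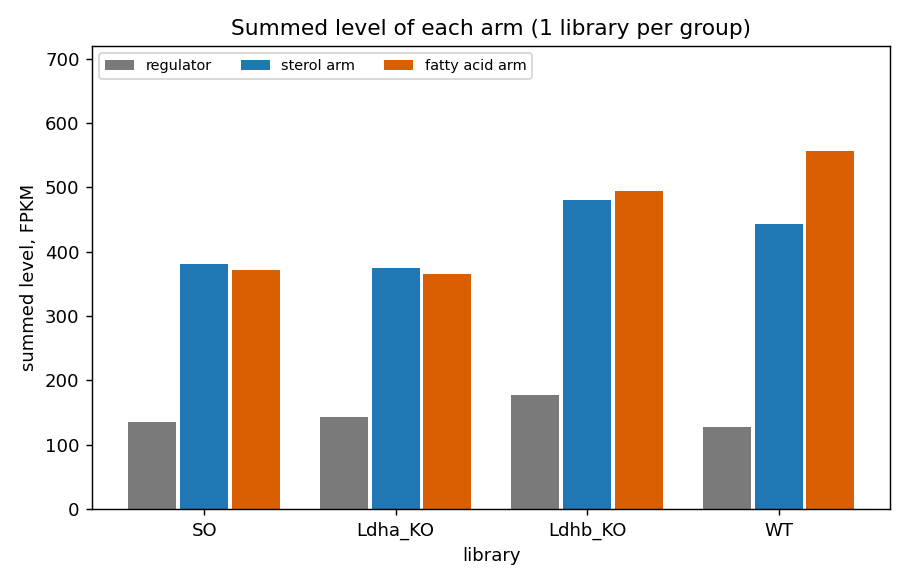
Summed FPKM (y axis) of the 5 regulators, the 16 sterol arm genes and the 10 fatty acid arm genes in each of the 4 libraries (x axis), 1 library per group and so no error bars. The fatty acid arm stood at 371 FPKM in SO and 366 FPKM in Ldha_KO, against 556 FPKM in WT.

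For some members the value of the gene itself is uncertain, because its transcript shares sequence with other genes. Of all stretches of 50 bases in the transcripts of Fdps, 64.1% also occur in other GENCODE transcripts, mainly of Gm43738, Gm3571 and Gm5873. Exons of Gm43738 on the same strand cover 77.4% of the exonic bases of Fdps, so strand could not separate their reads. The share was 49.1% for Acaca (Gm5182), 20.0% for Idi1, 19.5% for Tm7sf2 (its neighbour Vps51) and 10.9% for Fdft1 (Gm6781). It was 4.61% for Scd1 and 4.01% for Scd2, which are paralogs, and at or under 3.98% for every other member. No label says whether the counting used strand. Of the exonic bases, 20.9% in Fdft1, 18.6% in Scap, 16.0% in Hmgcs1 and 10.7% in Idi1 lie opposite exons of another gene, so their reads cannot be told apart without strand.

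Among the regulators, Insig1 and Scap differed most from WT. Insig1, which holds the SREBPs back and is itself a target of SREBP, was at 27.1 FPKM in SO, 30.4 FPKM in Ldha_KO, 38.6 FPKM in Ldhb_KO and 21.6 FPKM in WT. Its level was lowest in WT and highest in Ldhb_KO, where the difference to WT was 0.81. Scap, the escort that carries SREBPs out of the endoplasmic reticulum, was at 21.4 FPKM in SO, 19.2 FPKM in Ldha_KO, 14.1 FPKM in Ldhb_KO and 13.0 FPKM in WT. SO and Ldha_KO both lay above Ldhb_KO and WT, and the differences to WT were 0.68 in SO and 0.53 in Ldha_KO.

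The transcription factor genes were highest in Ldhb_KO. Srebf2 was at 47.0 FPKM in SO, 58.8 FPKM in Ldha_KO, 82.9 FPKM in Ldhb_KO and 57.9 FPKM in WT. Srebf1 was at 22.4 FPKM in SO, 19.0 FPKM in Ldha_KO, 25.4 FPKM in Ldhb_KO and 20.4 FPKM in WT. The largest difference to WT was 0.51, for Srebf2 in Ldhb_KO, which lay short of 1.5-fold, and Srebf1 moved less, at 0.30. Insig2, the second retention protein, was the flattest member, from 15.2 FPKM in Ldha_KO to 18.0 FPKM in SO.

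The early sterol enzymes make mevalonate and turn it into isoprenoid units. Hmgcs1, which makes HMG-CoA, was at 69.5 FPKM in SO, 75.7 FPKM in Ldha_KO, 84.7 FPKM in Ldhb_KO and 73.8 FPKM in WT, and its 4 values lay within a factor of 1.22. Mvk, the mevalonate kinase, was at 13.7 FPKM in SO, 7.87 FPKM in Ldha_KO, 13.1 FPKM in Ldhb_KO and 13.3 FPKM in WT. Ldha_KO stood apart from the other libraries, with a difference to WT of -0.69. Mvd, the decarboxylase of the same route, was at 13.6 FPKM in SO, 13.1 FPKM in Ldha_KO, 21.5 FPKM in Ldhb_KO and 17.3 FPKM in WT. Idi1, the isomerase, was at 9.19 FPKM in SO, 9.55 FPKM in Ldha_KO, 10.2 FPKM in Ldhb_KO and 13.9 FPKM in WT. WT was the highest library for Idi1, and the differences of -0.55 in SO and -0.50 in Ldha_KO did not reach 1.5-fold on the scale with a pseudocount of 1. With one of 0.1 the difference in SO was -0.60, past it. Pmvk, the second kinase, lay between 25.6 FPKM in Ldha_KO and 33.1 FPKM in SO.

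Fdps, Fdft1, Sqle and Lss carry the route through farnesyl diphosphate and squalene to lanosterol. Fdps, the farnesyl diphosphate synthase, was at 60.9 FPKM in SO, 59.4 FPKM in Ldha_KO, 91.6 FPKM in Ldhb_KO and 96.8 FPKM in WT. SO and Ldha_KO lay together below Ldhb_KO and WT, with differences to WT of -0.66 and -0.70 in SO and Ldha_KO. Sqle, the squalene epoxidase, was at 41.2 FPKM in SO, 39.8 FPKM in Ldha_KO, 56.9 FPKM in Ldhb_KO and 51.4 FPKM in WT. Lss, the lanosterol synthase, was at 9.47 FPKM in SO, 9.02 FPKM in Ldha_KO, 14.3 FPKM in Ldhb_KO and 11.5 FPKM in WT. Sqle and Lss thus had the same order of libraries, lowest in Ldha_KO and highest in Ldhb_KO. Fdft1, the squalene synthase, ranged only from 32.7 FPKM in WT to 38.8 FPKM in Ldhb_KO.

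After lanosterol, Dhcr7 and Tm7sf2 varied most. Dhcr7, the reductase that makes cholesterol from its last precursor, was at 21.9 FPKM in SO, 21.0 FPKM in Ldha_KO, 36.2 FPKM in Ldhb_KO and 27.8 FPKM in WT. Tm7sf2, a sterol reductase, was at 6.71 FPKM in SO, 3.81 FPKM in Ldha_KO, 7.90 FPKM in Ldhb_KO and 4.82 FPKM in WT. Both were highest in Ldhb_KO and lowest in Ldha_KO, and Tm7sf2 in Ldhb_KO was the only sterol arm gene counted as higher than WT in any library (0.61). Hsd17b7, a sterol ketone reductase, went the other way, with 5.42 FPKM in SO, 5.46 FPKM in Ldha_KO, 3.69 FPKM in Ldhb_KO and 5.31 FPKM in WT. Cyp51, the lanosterol demethylase, lay between 13.6 FPKM in SO and 17.3 FPKM in Ldha_KO, Nsdhl, a sterol dehydrogenase, between 23.4 FPKM in SO and 28.7 FPKM in Ldhb_KO, and Sc5d, a sterol desaturase, between 10.1 FPKM in SO and 12.5 FPKM in Ldha_KO. Stard4, a cholesterol transfer protein, was at 13.9 FPKM in SO, 14.3 FPKM in Ldha_KO, 14.7 FPKM in Ldhb_KO and 11.4 FPKM in WT, lowest in WT.

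In the fatty acid arm, of the enzymes that supply acetyl-CoA, Acss2 lay above WT and Acly slightly below it. Acss2, which makes acetyl-CoA from acetate, was at 13.3 FPKM in SO, 12.2 FPKM in Ldha_KO, 12.4 FPKM in Ldhb_KO and 6.23 FPKM in WT. SO, Ldha_KO and Ldhb_KO agreed closely and all lay above WT, with ratios to WT of 2.13, 1.96 and 1.98 and differences of 0.98, 0.87 and 0.89 in that order of libraries. Acss2 was the only member counted as higher in all 3 comparisons with WT, which share the WT library. WT was the lowest library, at any size of difference, for 6 of 31 members and for 25.8% of all kept genes. After rescaling each library to the summed value of WT, it was the lowest for 11 of 31 members and 37.7% of kept genes. Acly, which makes acetyl-CoA from citrate, was at 101 FPKM in SO, 101 FPKM in Ldha_KO, 108 FPKM in Ldhb_KO and 122 FPKM in WT. Its differences to WT were -0.28 in SO, -0.27 in Ldha_KO and -0.17 in Ldhb_KO, short of 1.5-fold. After rescaling they were -0.12, -0.13 and -0.056.

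Acaca and Acacb encode the acetyl-CoA carboxylases, which make malonyl-CoA, the first in the cytosol and the other at mitochondria. Acaca was at 4.61 FPKM in SO, 5.15 FPKM in Ldha_KO, 7.83 FPKM in Ldhb_KO and 8.10 FPKM in WT. Acacb was at 3.45 FPKM in SO, 3.76 FPKM in Ldha_KO, 5.05 FPKM in Ldhb_KO and 3.02 FPKM in WT. Acaca in SO and Ldha_KO was below Ldhb_KO and WT, while Acacb was lowest in WT. Fasn, the fatty acid synthase, was at 48.5 FPKM in SO, 44.1 FPKM in Ldha_KO, 57.4 FPKM in Ldhb_KO and 79.9 FPKM in WT. WT was the highest library for Fasn, and the differences were -0.71 in SO, -0.84 in Ldha_KO and -0.47 in Ldhb_KO.

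The stearoyl-CoA desaturases, which make monounsaturated fatty acids, included the most negative difference of the set to WT in both SO and Ldha_KO, that of Scd2. Scd2 was at 84.7 FPKM in SO, 86.5 FPKM in Ldha_KO, 160 FPKM in Ldhb_KO and 179 FPKM in WT. Scd1 was at 22.6 FPKM in SO, 22.0 FPKM in Ldha_KO, 46.2 FPKM in Ldhb_KO and 38.9 FPKM in WT. For both genes SO and Ldha_KO were close to each other and below Ldhb_KO and WT. Scd2 reached 2-fold, at -1.07 in SO and -1.04 in Ldha_KO, and Scd1 reached -0.76 and -0.79. When each library was rescaled so that its sum equalled that of WT, the differences of Scd2 were -0.91 and -0.90, no longer 2-fold.

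Fads1 and Fads2, desaturases of polyunsaturated fatty acids, also lay lower in SO and Ldha_KO than in Ldhb_KO and WT, with smaller differences. Fads1 was at 24.0 FPKM in SO, 26.4 FPKM in Ldha_KO, 38.4 FPKM in Ldhb_KO and 32.7 FPKM in WT, and Fads2 was at 21.2 FPKM in SO, 21.5 FPKM in Ldha_KO, 26.0 FPKM in Ldhb_KO and 27.2 FPKM in WT. Elovl6, which elongates palmitate, had another order. It was at 48.2 FPKM in SO, 42.9 FPKM in Ldha_KO, 32.4 FPKM in Ldhb_KO and 58.9 FPKM in WT. Its lowest library was Ldhb_KO, with a difference to WT of -0.84.

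**Figure D2:**
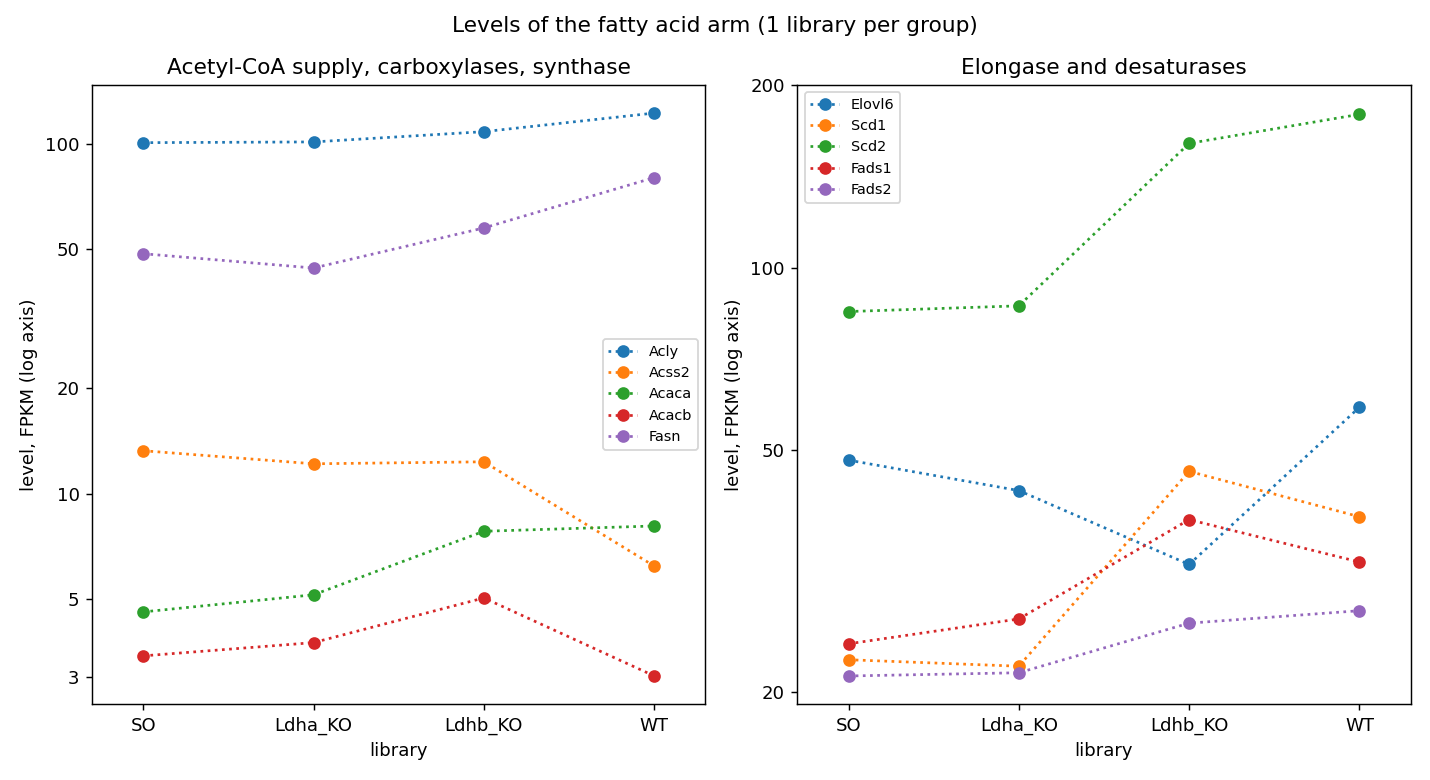
Level in FPKM on a log axis (y axis) of the 10 fatty acid arm genes in each library (x axis), with 1 point per library and dotted lines joining points of the same gene for reading only. Scd1, Scd2, Fads1, Fads2, Acaca, Fasn and Acly lay lower in SO and Ldha_KO than in Ldhb_KO and WT, while Acss2 was lowest in WT at 6.23 FPKM.

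Counted over the set, 14 of 31 members had both SO and Ldha_KO below both Ldhb_KO and WT, an order that 18.1% of all kept genes showed. They were 7 of 16 sterol arm genes (Mvd, Idi1, Fdps, Sqle, Lss, Nsdhl and Dhcr7), 7 of 10 fatty acid arm genes (Acly, Acaca, Fasn, Scd1, Scd2, Fads1 and Fads2) and 0 of 5 regulators. The opposite order held for Scap and Hsd17b7, 2 of 31 members, and for 14% of all kept genes. After rescaling to the summed value of WT the first order held for 13 of 31 members and for 11.7% of kept genes, and the opposite order for 3, Acss2 being the third, and 21.9%. Ldhb_KO was the highest library for 15 of 31 members, 9 of them in the sterol arm, and for 28.3% of all kept genes, which became 18 of 31 members and 30.4% after rescaling. These orders were looked at after the values were seen and carry no test.

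In SO against WT, the desaturase genes Scd1 and Scd2, the fatty acid synthase gene Fasn, the carboxylase gene Acaca and Fdps were lower, and Acss2 and Scap were higher. Of 31 members 5 were lower by 1.5-fold or more, namely Scd2 (-1.07), Scd1 (-0.76), Fasn (-0.71), Acaca (-0.70) and Fdps (-0.66). This is 16.1% of members, against 4.29% of all kept genes. There were 2 higher members, Acss2 (0.98) and Scap (0.68), which is 6.45% of members against 8.28% of all kept genes. At 2-fold 1 member was lower and 0 were higher, against 0.472% and 2.69% of all kept genes. Acss2 lay just short of 2-fold and passed it with a pseudocount of 0.1 (1.08) and, at 1.13, when the library sums were made equal. The median of the fatty acid arm was -0.39, with 8 of 10 genes below 0, and that of the sterol arm was -0.16, with 10 of 16 below 0, beside -0.04 over all kept genes.

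Rescaling each library to the summed value of WT gave 13285 kept genes and a median over them of 0.10 in SO against WT, where the deposited values gave -0.04. Under it 2 members were lower, Scd1 and Scd2, against 2.16% of kept genes, and 2 were higher, against 12.2%. The medians were then -0.24 for the fatty acid arm and -0.014 for the sterol arm. Relative to the median of all kept genes, the fatty acid arm was 0.35 lower with the deposited values (a difference of -0.35) and 0.34 lower (-0.34) after rescaling, and the sterol arm was at -0.13 and -0.12.

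In Ldha_KO against WT, the desaturase genes Scd1 and Scd2, the synthase gene Fasn and the mevalonate kinase gene Mvk were lower, and Acss2 was higher. Of 31 members 5 were lower by 1.5-fold or more, namely Scd2 (-1.04), Fasn (-0.84), Scd1 (-0.79), Fdps (-0.70) and Mvk (-0.69). This is 16.1% of members, against 6.31% of all kept genes. Acss2 (0.87) was the 1 higher member, against 8.94% of all kept genes. At 2-fold 1 member was lower and 0 were higher, against 1.06% and 2.65% of all kept genes. A median of -0.39 was found for the fatty acid arm, with 8 of 10 genes below 0, and one of -0.20 for the sterol arm, with 10 of 16 below 0, beside -0.03 over all kept genes. Acaca, at -0.56, lay just outside the 1.5-fold rule on the scale with a pseudocount of 1. With one of 0.1 its difference was -0.64, past the rule, and its ratio to WT in FPKM was 0.636. SO and Ldha_KO were both set against the 1 WT library, so their likeness in this comparison is not independent.

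After rescaling to the summed value of WT, 3 members were lower in Ldha_KO (Fasn, Scd1 and Scd2), against 3.67% of kept genes, and 3 were higher (Scap, Insig1 and Acss2), against 12.6%. The arm medians were then -0.25 for the fatty acid arm and -0.080 for the sterol arm, beside 0.09 over all kept genes.

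In Ldhb_KO against WT, Insig1 and Acss2 were higher and Elovl6 was lower, and the sterol arm lay slightly above WT. Of 31 members 4 were higher by 1.5-fold or more, namely Acss2 (0.89), Insig1 (0.81), Tm7sf2 (0.61) and Acacb (0.59). This is 12.9% of members, against 12.6% of all kept genes, so the share was near the background. Elovl6 (-0.84) was the 1 lower member, against 7.20% of all kept genes, and no member reached 2-fold, against 3.36% of kept genes higher and 1.09% lower. The sterol arm had a median of 0.12, with 12 of 16 genes above 0, beside -0.02 over all kept genes, and it was at 0.24 after rescaling to the summed value of WT, beside 0.08. Under that rescaling 5 members were higher, Srebf2 among them, against 16.3% of kept genes, and 1 was lower, against 4.49%. All 5 regulators lay above 0, with a median of 0.30. The fatty acid arm had a median of -0.055, which turned to 0.056 after that rescaling.

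**Figure D3:**
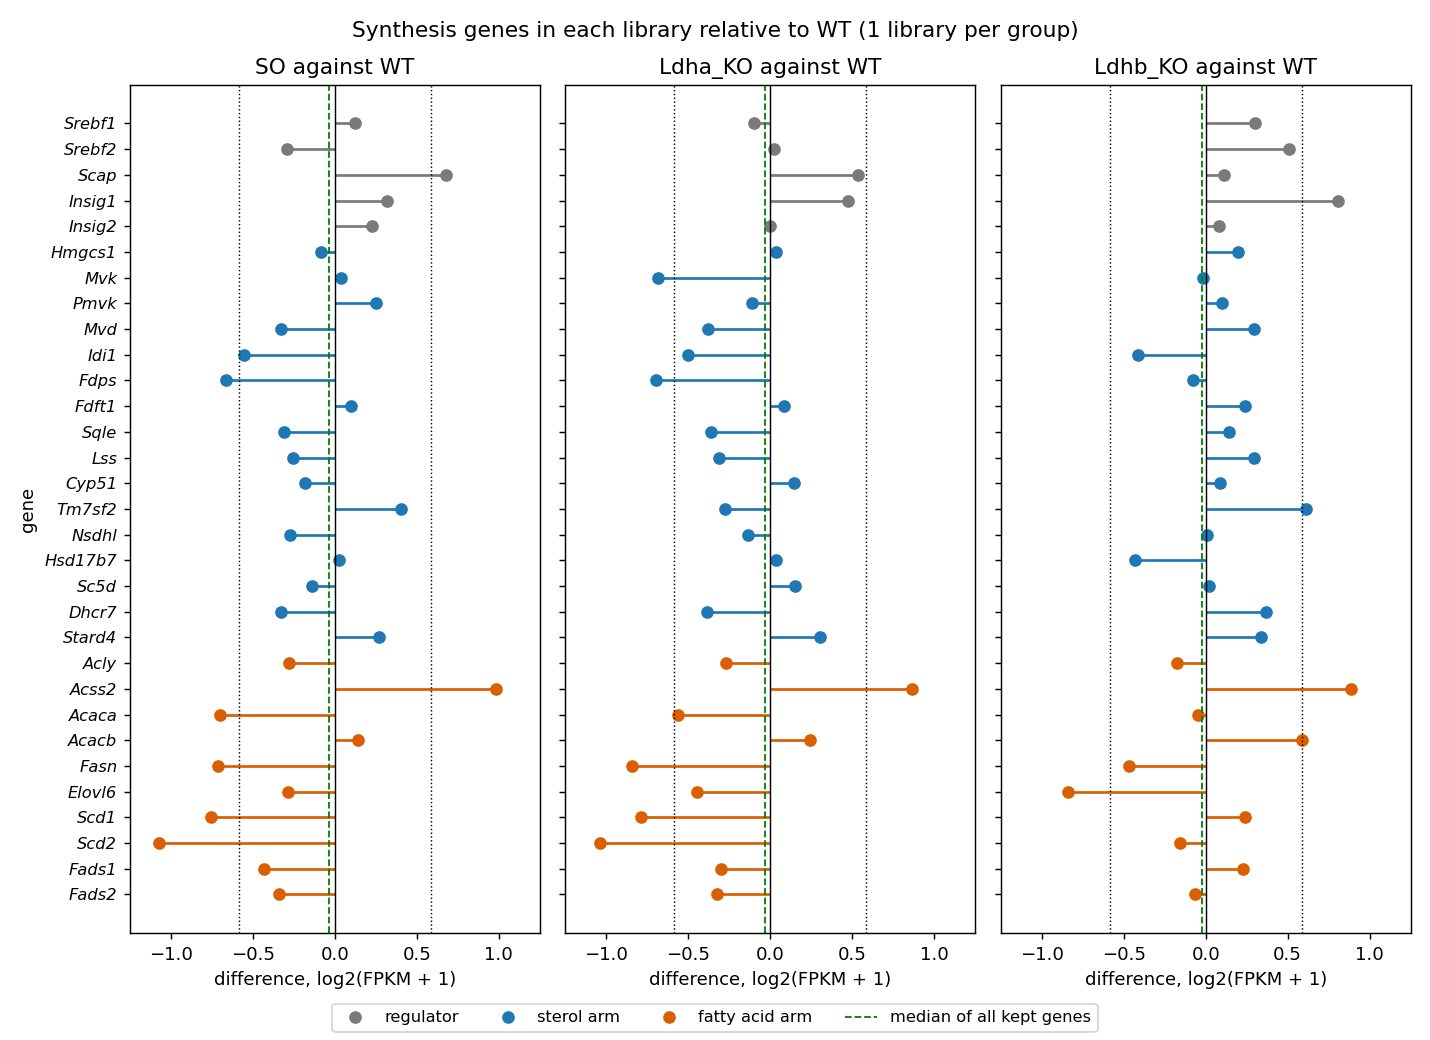
Difference of log2(FPKM + 1) to WT (x axis) for each of the 31 genes (y axis) in SO, Ldha_KO and Ldhb_KO, 1 library each. Dotted lines mark 1.5-fold and the dashed line the median of all kept genes. Scd2 lay at -1.07 in SO, -1.04 in Ldha_KO and -0.16 in Ldhb_KO. Acss2 lay at 0.98, 0.87 and 0.89 in the same panels.

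In Ldha_KO against Ldhb_KO, which does not involve the WT library, genes of both arms were lower in Ldha_KO. Of 31 members 8 were lower by 1.5-fold or more and 0 were higher. They were Scd1 (-1.03), Tm7sf2 (-0.89), Scd2 (-0.88), Dhcr7 (-0.75), Mvd (-0.68), Mvk (-0.67), Fdps (-0.62) and Lss (-0.61). This is 25.8% of members, against 8.09% of all kept genes lower and 6.51% higher. At 2-fold 1 member, Scd1, was lower, and 0 were higher, against 1.54% and 1.67% of all kept genes. Tm7sf2, with a ratio of 0.482 in FPKM, passed 2-fold with a pseudocount of 0.1 (-1.03). The highest differences were 0.46 for Hsd17b7, 0.42 for Scap and 0.39 for Elovl6.

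Between the knockouts the sterol arm had a median of -0.19, with 13 of 16 genes below 0, and the fatty acid arm one of -0.36, with 9 of 10 below 0, beside -0.02 over all kept genes. Within the sterol arm the genes of the squalene steps, Fdps, Fdft1, Sqle and Lss, had a median of -0.56, and the 6 genes after lanosterol one of -0.04 with a range from -0.89 to 0.46. The 4 desaturases had a median of -0.70. After rescaling to the summed value of WT the same 8 genes were lower, against 7.93% of kept genes, and 0 were higher, against 7.01%. Across the 4 comparisons the median of the fatty acid arm lay below that of the sterol arm by a similar amount, with differences between the arms of -0.23 in SO against WT, -0.18 in Ldha_KO against WT, -0.18 in Ldhb_KO against WT and -0.17 in Ldha_KO against Ldhb_KO. The comparisons share libraries, so these values are not independent.

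**Figure D4:**
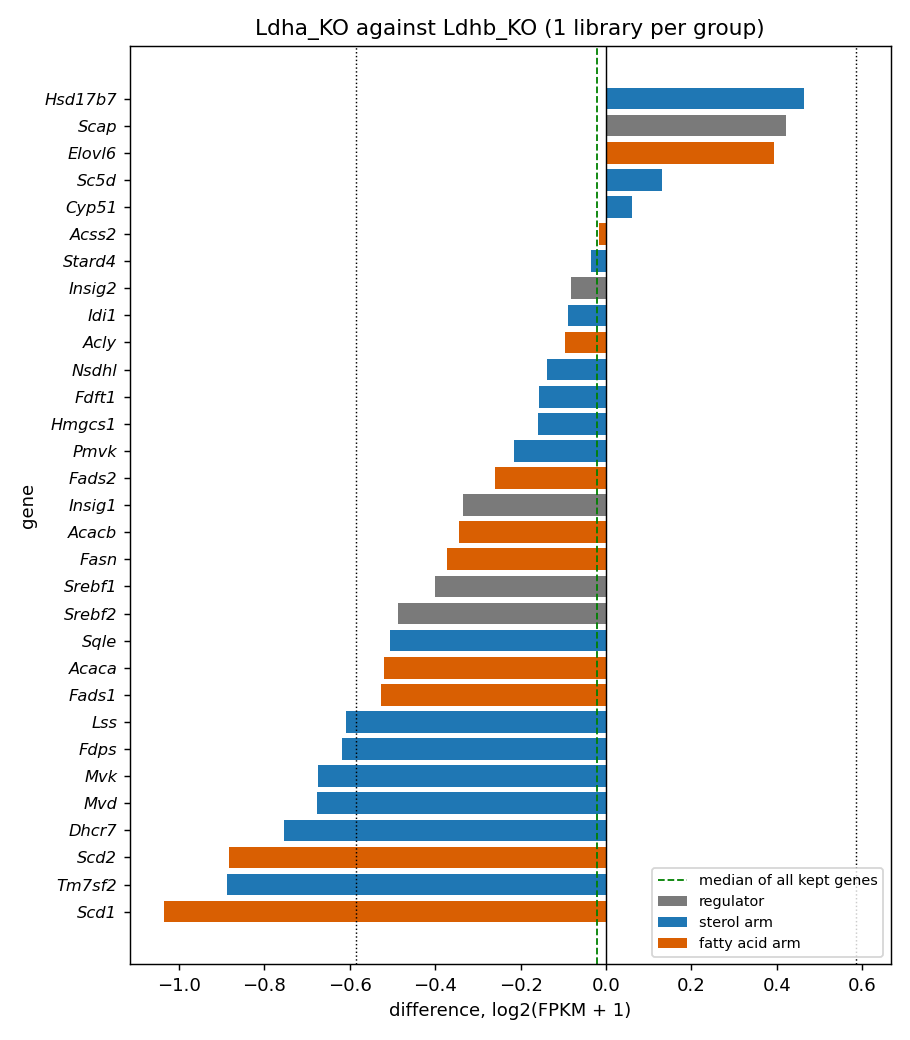
Difference of log2(FPKM + 1) between Ldha_KO and Ldhb_KO (x axis) for each of the 31 genes (y axis), 1 library each, sorted by size and coloured by arm. Dotted lines mark 1.5-fold, and 8 genes lie beyond the left line, from Lss at -0.61 to Scd1 at -1.03.

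**Figure D5:**
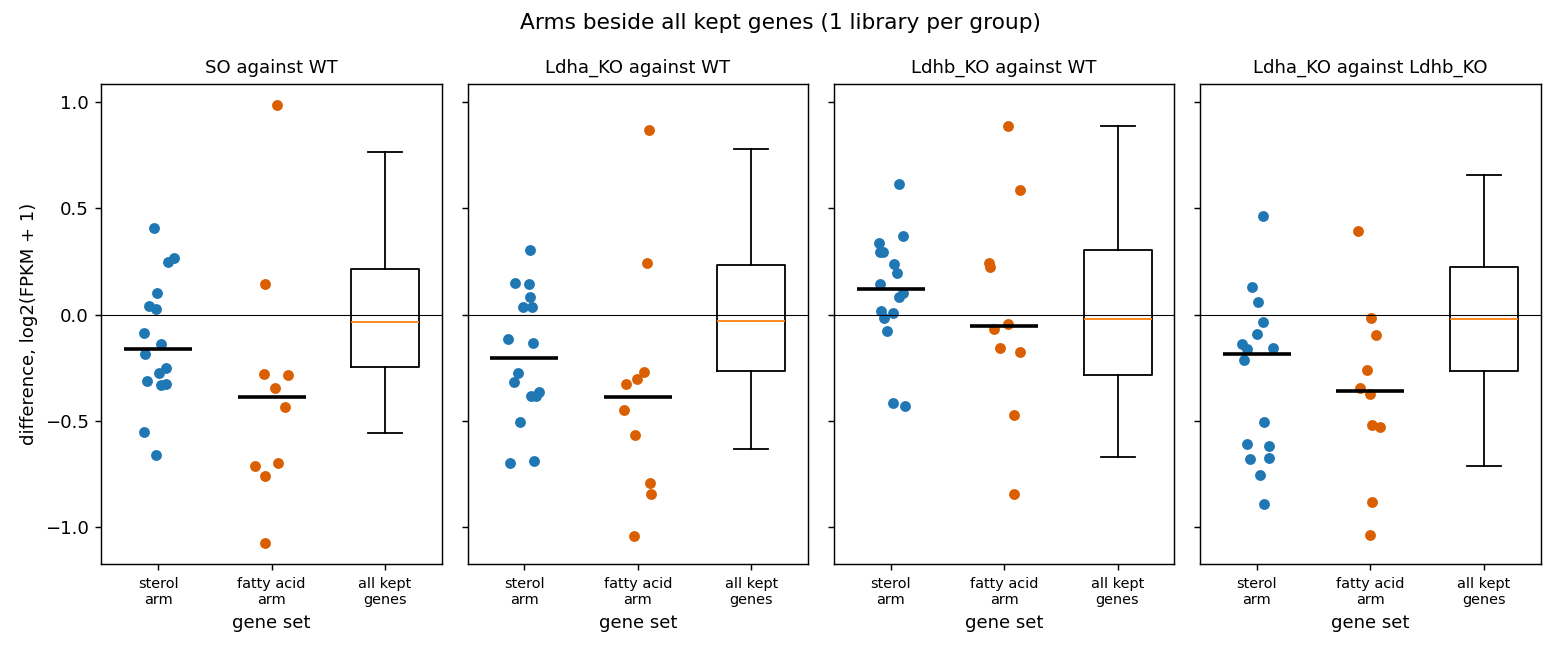
Difference of log2(FPKM + 1) (y axis) in the 4 comparisons for each gene of the arms (points, with the median as a bar) and for all 13142 kept genes (box with median and quartiles, whiskers at the 5th and 95th percentiles). The fatty acid arm lies at -0.39 in SO against WT and in Ldha_KO against WT, and at -0.055 in Ldhb_KO against WT.

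Other genes of these pathways were described from 4 lists with 38 genes, of which 36 reached 1 FPKM. In SO against WT 4 were higher by 1.5-fold or more and 0 lower, in Ldha_KO against WT 5 and 0, and in Ldhb_KO against WT 6 and 1. Between the knockouts 1 was higher in Ldha_KO, Cpt1a, and 4 were lower, namely Soat1, Abcg1, Msmo1 and Slc25a1. The shares of all kept genes are those given above for the same comparisons. Medians were -0.02 in SO, 0.05 in Ldha_KO and 0.09 in Ldhb_KO. In SO and Ldha_KO these medians lay nearer 0 than that of the fatty acid arm.

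Of 5 further sterol enzymes, Msmo1, a sterol oxidase, was at 78.2 FPKM in SO, 68.9 FPKM in Ldha_KO, 115 FPKM in Ldhb_KO and 62.0 FPKM in WT, highest in Ldhb_KO like most of the sterol arm (0.89). Of 11 genes of sterol sensing, efflux and storage, Soat1, which esterifies cholesterol for storage, was at 6.78 FPKM in SO, 7.84 FPKM in Ldha_KO, 15.6 FPKM in Ldhb_KO and 5.29 FPKM in WT. Its difference of 1.40 in Ldhb_KO exceeded those of all 31 members to WT. Mylip, a ubiquitin ligase that degrades lipoprotein receptors, was at 4.43 FPKM in SO, 2.82 FPKM in Ldha_KO, 4.295 FPKM in Ldhb_KO and 2.04 FPKM in WT. Scarb1, a receptor for high-density lipoprotein, was at 25.0 FPKM in SO, 28.8 FPKM in Ldha_KO, 32.2 FPKM in Ldhb_KO and 19.3 FPKM in WT. Nr1h2, an oxysterol receptor, was at 47.4 FPKM in SO, 33.7 FPKM in Ldha_KO, 30.3 FPKM in Ldhb_KO and 48.3 FPKM in WT. Both passed 1.5-fold in Ldhb_KO (0.71 and -0.65) and lay just short of it in Ldha_KO (0.56 and -0.50). Abcg1, a sterol exporter, was at 2.62 FPKM in Ldha_KO and 5.34 FPKM in Ldhb_KO, lower by 1.5-fold or more between the knockouts (-0.81).

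Of 14 further genes of fatty acid supply and activation, Lpin1, a phosphatidate phosphatase, was at 14.4 FPKM in SO, 8.46 FPKM in Ldha_KO, 11.2 FPKM in Ldhb_KO and 4.63 FPKM in WT. Mlxipl, which encodes the glucose-responsive factor ChREBP, was at 5.02 FPKM in SO, 5.27 FPKM in Ldha_KO, 5.28 FPKM in Ldhb_KO and 2.44 FPKM in WT. Lpin1 reached 2-fold in SO (1.45) and in Ldhb_KO (1.12). Both genes were lowest in WT and higher by 1.5-fold or more in SO, Ldha_KO and Ldhb_KO, as was Acss2. Thrsp, a lipogenic regulator, was at 1.34 FPKM in Ldha_KO and 0.443 FPKM in WT, low in every library. Slc25a1, which exports citrate from mitochondria, was at 57.6 FPKM in Ldha_KO and 88.5 FPKM in Ldhb_KO, a difference of -0.61.

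Of 8 genes of fatty acid oxidation, 1 was higher in SO than in WT, 2 in Ldha_KO and 0 in Ldhb_KO, and 0 were lower in any of them. Over all kept genes 8.28% in SO, 8.94% in Ldha_KO and 12.6% in Ldhb_KO were higher, and 4.29%, 6.31% and 7.2% lower. Cpt1a, which controls entry of fatty acids into mitochondria, was at 32.0 FPKM in SO, 53.4 FPKM in Ldha_KO, 28.8 FPKM in Ldhb_KO and 32.1 FPKM in WT, and so stood out in Ldha_KO. Acadvl, a dehydrogenase for very long chains, was at 18.7 FPKM in SO, 14.7 FPKM in Ldha_KO, 10.5 FPKM in Ldhb_KO and 9.20 FPKM in WT.

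Promoters were compared because both arms share the SREBP factors, which bind sterol regulatory elements together with NF-Y at CCAAT boxes and with Sp1 at GC boxes. Promoter sequence, the 250 bases before an annotated start, was found for 24 of 31 members in RefSeq (build GRCm38.p6, whereas the authors' build was mm9). It was missing for Fdps, Fdft1, Sqle and Stard4 of the sterol arm and for Scd1, Scd2 and Fads1 of the fatty acid arm. The counts by arm below leave these genes out, among them Scd2, Scd1 and Fdps, which were lower in SO and Ldha_KO. Motifs were searched on both strands and a gene counted if any of its starts matched, and no motifs of different kinds overlapped in a member. The sterol regulatory element was searched only as the exact letters TCACNCCAC. Elements with other letters or outside these 250 bases were not counted, so a member without a match may still have one. These letters were found in 1 of 24 members, Hmgcs1, and in 1.22% of all 27025 genes with a promoter. CCAAT was found in 19 of 24 members, including 12 of 12 of the sterol arm and 3 of 7 of the fatty acid arm, and in 37.5% of all genes. GGGCGG was found in 19 of 24 members and 35.4% of all genes, and the E-box CACGTG in 5 of 24 members and 6.86% of all genes. A match is a description of the letters and not of binding, and the share over all genes is not matched for base composition.

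Shown are the promoters of Hmgcs1, the member with a match to TCACNCCAC, and of Insig1, the regulator that differed most in Ldhb_KO. Also shown are those of Acss2, higher in SO, Ldha_KO and Ldhb_KO than in WT, and of Fasn, lower in all of them. In Ldhb_KO the difference of Fasn to WT was short of 1.5-fold. The promoters run 5′ to 3′ towards the start, with matches to TCACNCCAC and to CCAAT in capitals, in either direction. The match to TCACNCCAC in Hmgcs1 begins at position -137, counted back from the start. The regions are chr13:119690101-119690350 on the plus strand for Hmgcs1, chr5:28071162-28071411 on the plus strand for Insig1, chr2:155517793-155518042 on the plus strand for Acss2 and chr11:120824548-120824797 on the minus strand for Fasn.
Hmgcs1: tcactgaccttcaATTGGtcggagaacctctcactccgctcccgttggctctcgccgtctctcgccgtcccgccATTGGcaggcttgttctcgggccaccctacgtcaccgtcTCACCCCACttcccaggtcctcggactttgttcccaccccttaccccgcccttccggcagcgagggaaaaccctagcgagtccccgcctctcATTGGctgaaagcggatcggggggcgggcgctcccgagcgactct
Insig1: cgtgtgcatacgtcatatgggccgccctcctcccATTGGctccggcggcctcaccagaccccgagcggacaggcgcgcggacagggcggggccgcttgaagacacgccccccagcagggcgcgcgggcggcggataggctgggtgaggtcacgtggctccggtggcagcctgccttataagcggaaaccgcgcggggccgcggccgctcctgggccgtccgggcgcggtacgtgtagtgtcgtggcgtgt
Acss2: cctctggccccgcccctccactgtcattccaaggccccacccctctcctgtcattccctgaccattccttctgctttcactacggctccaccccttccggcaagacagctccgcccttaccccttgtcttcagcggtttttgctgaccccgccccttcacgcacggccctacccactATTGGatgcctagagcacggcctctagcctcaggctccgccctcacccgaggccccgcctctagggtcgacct
Fasn: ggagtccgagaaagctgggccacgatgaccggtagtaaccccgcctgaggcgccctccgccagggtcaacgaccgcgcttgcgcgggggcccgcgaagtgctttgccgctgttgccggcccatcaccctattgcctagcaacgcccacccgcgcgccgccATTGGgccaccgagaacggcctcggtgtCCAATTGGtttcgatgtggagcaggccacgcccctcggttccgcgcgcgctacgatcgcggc
Hmgcs1, with the match to TCACNCCAC and 3 CCAAT boxes, was nearly level across libraries. Acss2 and Fasn, which moved in opposite directions relative to WT, held 1 and 3 matches to CCAAT and no match to TCACNCCAC in these windows. The stretch CCAATTGG in Fasn was counted in both directions, and its matches overlap.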

How the data were processed

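RNA was measured in mouse embryonic stem cells, with 1 library for each of SO, Ldha_KO, Ldhb_KO and WT, grouped by the treatment label. The deposited values were read as FPKM made by the authors, from the values alone, since they are not whole and their totals differ between libraries. RPKM and FPKM cannot be told apart, and the depth is unknown, so no counting interval was computed. Per the submitters' processing notes, the build was mm9 and the tools were SAMtools 1.9, edgeR 3.26.8, Bowtie2 2.3.4.3 and HTSeq 0.11.2. Neither their roles nor the annotation nor any filter is given in the sources used here.

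Differences of log2(FPKM + 1), with a pseudocount of 1, were computed with Python 3.11.15 and pandas 2.3.3 over genes with at least 1 FPKM in at least 1 library. For genes with low values such differences are too small. The computation of the differences was checked only by recovering known fold changes that had been put in. Whether the calls hold between replicate libraries was not tested. Alternatives were a pseudocount of 0.1, no filter, a filter of 5 and rescaling to the summed value of WT. All members are named, and other pathway genes at 1.5-fold in at least 1 comparison. Members and lists were chosen with earlier results of these data known. Sequence sharing used 50-base stretches of GENCODE M21 transcripts.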

Additional observations from a re-analysis of the deposited data

How the results depend on the processing

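No call of a member changed sign under any of the 4 alternatives, and all 31 members passed every filter, so the medians and counts of the set were the same without the filter and with a filter of 5. With a pseudocount of 0.1 the median of the sterol arm was -0.17 in SO against WT and -0.23 in Ldha_KO against WT, and that of the fatty acid arm was -0.40 in both and -0.40 in Ldha_KO against Ldhb_KO. Each comparison except Ldhb_KO against WT then gained 1 member at 1.5-fold. These were Idi1 in SO against WT and Acaca in Ldha_KO against WT and against Ldhb_KO. With each sum set equal to that of WT, the sterol arm was at -0.014 in SO, -0.080 in Ldha_KO and 0.24 in Ldhb_KO against WT and at -0.17 in Ldha_KO against Ldhb_KO. The fatty acid arm was at -0.24, -0.25, 0.056 and -0.34 in the same order of comparisons, so its sign in Ldhb_KO against WT turned. This raises every value of SO, Ldha_KO and Ldhb_KO by a constant factor, by 0.16, 0.14 and 0.12 on the log2 scale. Among members that had not reached 1.5-fold, the sign then turned for 2 in SO (Hmgcs1 and Sc5d), for 4 in Ldha_KO (Srebf1, Insig2, Pmvk and Nsdhl) and for 4 in Ldhb_KO (Mvk, Fdps, Acaca and Fads2) against WT, and for 1, Acss2, in Ldha_KO against Ldhb_KO. The count of lower members was then 2 in SO and 3 in Ldha_KO, and that of higher members in Ldha_KO was 3. Over all kept genes at 1.5-fold, the rescaled counts were 1627 higher and 287 lower in SO, against 1088 and 564 with the deposited values. They were 1679 and 487 in Ldha_KO, against 1175 and 829, and 2165 and 596 in Ldhb_KO, against 1652 and 946. With a pseudocount of 0.1 they were 1705 and 825 in SO, 1830.0 and 1175 in Ldha_KO, 2306 and 1255 in Ldhb_KO, and 1181 and 1637 in Ldha_KO against Ldhb_KO, against 856 and 1063. With a filter of 5 they were 600.0 and 439 in SO, 640.0 and 646 in Ldha_KO, 878 and 800.0 in Ldhb_KO, and 629 and 655 in Ldha_KO against Ldhb_KO. No paired analysis was possible because each group has 1 library. With 1 library per group, no value here has an error, and no sample could be left out.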
